A study of Mus musculus with 9 samples.

Results

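Expression of 9 genes of transforming growth factor beta (TGF-beta) family signalling was followed across astroglia and brain tumour cells of the mouse. The genes are the activin subunits Inhba and Inhbb, the activin inhibitor Fst, the ligands Tgfb1, Tgfb2, Tgfb3 and Bmp4, the intracellular inhibitor Smad7 and the latent TGF-beta binding protein gene Ltbp2. They were taken as the rows of the deposited table whose RefSeq accession belongs to one of these symbols, and all 9 had a row, among 14771 named genes in all. Messenger RNA had been sequenced from 9 libraries in 3 groups of 3. The reference group, astroglia (AG), is described as brain cells, is of C57BL/6 background and is itself genetically altered, its genotype being given as p53 DN with Nf1 shRNA. Tumour cells came from the brainstem (BS) or from the olfactory bulb (OB), in both cases on a mix of 129 and C57BL/6 with Foxr2 overexpression and p53 cko. Background, genotype and origin all separate AG from the tumour groups and cannot be told apart. The sources used here do not give age, the driver of Foxr2 or of the p53 deletion, or the culture of the cells, nor whether the libraries of a group are separate animals, so that p-values measure the spread between these libraries, which may be technical.

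Ligands of this family are secreted dimers that bind pairs of serine/threonine kinase receptors. TGF-beta and activin receptors phosphorylate SMAD2 and SMAD3, BMP receptors phosphorylate SMAD1, SMAD5 and SMAD9, and both kinds of SMAD enter the nucleus with SMAD4. TGF-beta is secreted in a latent form tied to the matrix, follistatin (the product of Fst) binds activin, and Smad7 and Smad6 are induced by the pathway and damp it. In the nervous system TGF-beta and activin signals are known for roles in reactive glia and matrix production, and BMP signals for favouring astrocyte over oligodendrocyte fate.

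Sequences upstream of the annotated start were at hand for 6 of the 9 genes, from RefSeq on build GRCm38.p6, a later build than the mm9 named for the table. Shown are the 250 bases before the start of the 4 genes that carry the contrasts described next: Inhba and Tgfb1, which had the highest levels per kb in AG among the 5 of the 9 genes with 1 RefSeq transcript, Inhbb, the other activin subunit, and Ltbp2, which has several of the searched motifs. The Inhba window lies at chr13:16011601-16011850 (plus strand), that of Inhbb at chr1:119422249-119422498 (minus strand), that of Tgfb1 at chr7:25686752-25687001 (plus strand) and that of Ltbp2 at chr12:84876492-84876741 (minus strand). Capitals mark matches, on either strand, to any of 4 motifs: the SMAD-binding element CAGAC; the AP-1 site TGANTCA; the GC box GGGCGG; and the TATA box TATAAA.
Inhba: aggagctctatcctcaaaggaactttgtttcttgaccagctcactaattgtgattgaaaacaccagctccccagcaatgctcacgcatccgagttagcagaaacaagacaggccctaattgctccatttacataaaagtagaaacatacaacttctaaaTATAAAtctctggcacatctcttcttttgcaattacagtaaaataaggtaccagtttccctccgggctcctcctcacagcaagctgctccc
Inhbb: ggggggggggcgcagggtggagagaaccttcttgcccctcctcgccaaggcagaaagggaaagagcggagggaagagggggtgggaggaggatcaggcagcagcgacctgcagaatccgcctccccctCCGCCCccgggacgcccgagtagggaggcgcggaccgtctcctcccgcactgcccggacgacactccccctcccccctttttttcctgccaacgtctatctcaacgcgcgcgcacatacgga
Tgfb1: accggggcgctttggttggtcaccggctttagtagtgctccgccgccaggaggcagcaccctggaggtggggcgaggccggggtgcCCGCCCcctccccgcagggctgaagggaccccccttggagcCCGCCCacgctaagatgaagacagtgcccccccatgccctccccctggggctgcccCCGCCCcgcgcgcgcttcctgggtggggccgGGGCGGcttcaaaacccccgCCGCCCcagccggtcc
Ltbp2: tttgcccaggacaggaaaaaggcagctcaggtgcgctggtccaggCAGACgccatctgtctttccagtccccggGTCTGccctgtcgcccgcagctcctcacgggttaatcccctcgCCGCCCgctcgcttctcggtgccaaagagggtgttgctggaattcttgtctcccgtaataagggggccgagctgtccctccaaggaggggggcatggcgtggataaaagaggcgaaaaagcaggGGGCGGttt
The Inhba window held 1 TATA box and none of the other motifs, and its GC content was 43.2%. The Tgfb1 window held 5 GC boxes at a GC content of 75.2%, and the Inhbb window held 1 GC box at 68%. The Ltbp2 window held 2 SMAD-binding elements and 2 GC boxes. That of Tgfb2, not shown, also held 2 SMAD-binding elements, and 1 TATA box. No matches of different motifs overlapped in these windows. Of 32851 windows of the same length, 42.2% held a SMAD-binding element, 6.75% an AP-1 site, 32.7% a GC box and 12.4% a TATA box. A match describes letters and not a bound site.

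The libraries held between 11300273 and 19868282 reads. Values are normalized reads, the reads of a gene divided by a size factor per library. In this table genes with several RefSeq transcripts have low values (the median row value was 258.6 where RefSeq has 1 transcript but 12.57 where it has 2), so that levels are compared between libraries, and a low value of such a gene is not read as low expression. Inhba, Inhbb, Tgfb1, Tgfb3 and Smad7 have 1 curated RefSeq transcript, Tgfb2, Bmp4 and Ltbp2 have 2 and Fst has 3, with 1 of them in the table. Changes are differences of log2(normalized reads + 1), which understate changes at low levels. Genes with an adjusted p below 0.05 count as called. AG libraries lay close together, whereas BS_287 and OB_257 stood apart from the other tumour libraries on the principal components. Of 10 astrocyte markers 9 had a row, with a summed level of 8602 to 8693 in AG, against 17395 to 30968 in BS and 6777 to 34956 in OB. Of the 6 tested, 3 were called higher and 1 lower in OB, beside 16.0% and 19.0% of all genes tested. In BS 2 were called higher and 0 lower, beside 15.6% and 19.5%. Aldoc and Fgfr3, called higher in both, were near 0 in AG and were tested only because of their tumour values. Their rises were thus in part set in advance. In AG the gap junction gene Gja1 was at 5154 ± 221 (SD, n = 3), Sox9 at 2627 ± 310 and the glutamate transporter gene Slc1a3 at 821 ± 58.7. S100b, a gene with 1 RefSeq transcript, was at 26.0 ± 1.14 in AG against 4117 ± 3451 in OB, and Aldoc at 0.363 ± 0.629 against 36.6 ± 17.1. Gfap (2.35 ± 1.32), Aqp4 (1.58 ± 0.448) and Aldh1l1 (5.45 ± 0.455), like Aldoc genes with several RefSeq transcripts, were near 0 in AG.

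Inhba encodes the activin A subunit. It had 3861, 4146 and 4457 normalized reads in AG_1, AG_2 and AG_3, 1.68, 5.33 and 0 in BS_287, BS_295 and BS_296, and 1.11, 2.85 and 0 in OB_257, OB_287 and OB_295. Every tumour library was near 0 and far below every AG library. The whole group had 7 reads in BS and 4 in OB, against 12931 in AG. The ratio of AG to BS was 1855 (exact 95% counting interval 900 to 4614) and that of AG to OB 2968 (interval 1159 to 10894), intervals that cover counting error only. On the log2 scale Inhba fell by 10.66 ± 0.72 (SE) in BS (limma adjusted p = 1.64e-05) and fell by 11.01 ± 0.72 in OB (limma adjusted p = 1.60e-05). Tested genes needed at least 10 normalized reads in at least 3 libraries. Inhba met this through AG alone, so that the direction of its change was set in advance. In bulk RNA fewer cells of a type and less RNA per cell cannot be told apart.

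Inhbb, the subunit of activin B, had another pattern. AG libraries had 19.2, 12.8 and 14.2 normalized reads. BS_295 (789) and BS_296 (623) were far higher, and BS_287 (40.3) lay between them and AG. OB_287 (621) and OB_295 (261) were high too, while OB_257, at 5.53, was below every AG library. BS therefore did not overlap AG and OB did. The change was 4.08 ± 1.70 (SE) in BS (limma adjusted p = 0.0949) and 2.66 ± 1.70 in OB (limma adjusted p = 0.255), and neither passed the test. BS was called by edgeR (adjusted p = 0.0349) and by DESeq2 (adjusted p = 0.0002) as higher, and OB likewise by DESeq2 (adjusted p = 0.00165) but not by edgeR (adjusted p = 0.0528). The values of 2 libraries decided this: without OB_257 the change in OB was 4.64 (limma adjusted p = 0.0182) and that in BS, still 4.08, was called as well (0.0173), and without BS_287 the change in BS was 5.44 (limma adjusted p = 0.0405).

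Levels of both subunits can be compared with each other per kb of transcript. Per kb, Inhba had 2525 to 2915 normalized reads in AG and Inhbb 3.01 to 4.51. In BS, Inhba had 0 to 3.49 per kb and Inhbb 9.46 to 186, and in OB, Inhba had 0 to 1.87 and Inhbb 1.30 to 146. Inhba was the higher subunit gene in each AG library and Inhbb in each tumour library. In OB_257 the difference rested on 1 read of Inhba and 5 of Inhbb and is within counting error.

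**Figure D1:**
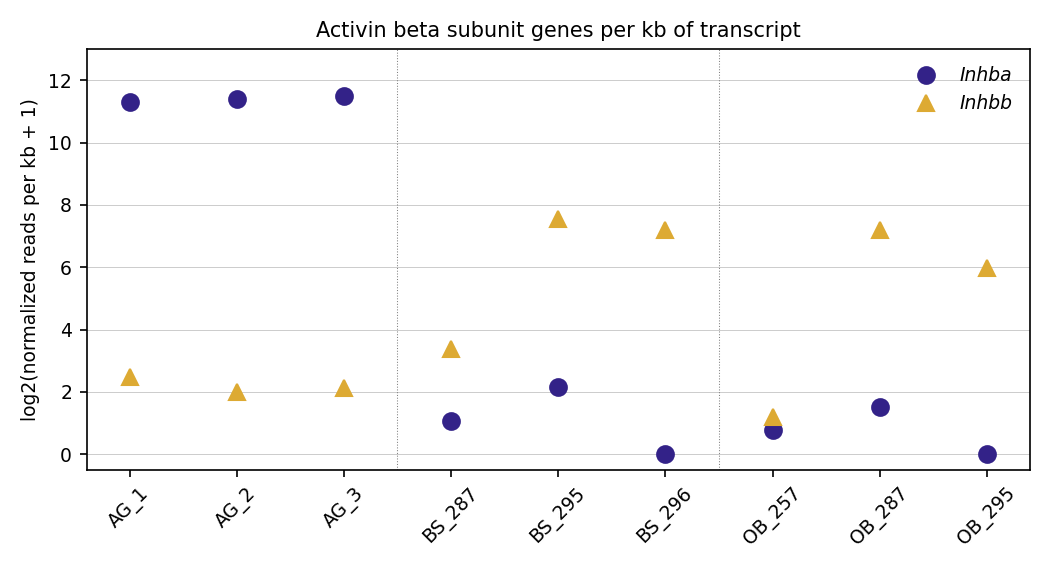
Activin subunit genes by library, in normalized reads per kb of the paired transcript on a log2 axis after adding 1; circles are Inhba and triangles Inhbb, and dotted lines part the groups. The circles are at the top in AG and at 0 to 3.49 reads per kb in the tumour libraries, where the triangles spread from 1.30 in OB_257 to 186 in BS_295.

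Fst, whose product follistatin binds and neutralizes activin, had 55.9, 55.2 and 68.6 normalized reads in AG. BS libraries had 2.52, 1.07 and 0, and OB libraries 0, 0.952 and 0. These are reads of 1 of its transcripts only. AG did not overlap either tumour group, on 186 reads against 4 for BS and 1 for OB. The ratio of AG to BS was 46.7 (interval 17.9 to 173) and that of AG to OB 171 (interval 30.3 to 6781). Fst fell by 4.97 ± 0.52 (SE) in BS (limma adjusted p = 0.000191) and fell by 5.60 ± 0.52 in OB (limma adjusted p = 0.000101). Like Inhba, Fst was tested only because of its AG values, so that the direction of its change was set in advance.

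Tgfb1, the TGF-beta ligand best known from wound healing and fibrosis, had 3128, 2595 and 2236 normalized reads in AG. It stood at 23.5, 9.60 and 15.8 in BS_287, BS_295 and BS_296 and at 3.32, 5.71 and 4.35 in OB_257, OB_287 and OB_295. All 3 groups were apart, with every OB library below every BS library. Tgfb1 fell by 7.33 ± 0.38 (SE) in BS (limma adjusted p = 5.12e-06) and fell by 8.94 ± 0.38 in OB (limma adjusted p = 2.33e-06). Too few tumour libraries reached 10 normalized reads for Tgfb1 to be tested without its AG values. Between the tumour groups the change was -1.60 ± 0.38 in OB against BS, on 13 reads in OB and 53 in BS. That did not pass the test over all genes (limma adjusted p = 0.242). DESeq2 called it (adjusted p = 0.038) and edgeR did not (adjusted p = 0.233). The ratio of BS to OB reads was 3.73 (interval 2.0 to 7.46).

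Tgfb3, a further ligand with the same receptors, fell least among the genes called. AG libraries lay between 1367 and 1379 normalized reads. BS libraries had 529, 286 and 475, and OB libraries had 186, 196 and 667. Every tumour library was below AG, and the tumour groups overlapped, with OB_295 the highest of the 6. Tgfb3 fell by 2.24 ± 0.48 (SE) in OB (limma adjusted p = 0.00727) and fell by 1.72 ± 0.48 in BS (limma adjusted p = 0.0233). The call in BS was lost without AG_1, AG_2, AG_3 or BS_295, with adjusted p from 0.0702 to 0.0711.

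Tgfb2, the remaining TGF-beta ligand, had 0 to 3.94 normalized reads in AG, against 0.839 to 2.96 in BS and 0 to 2.21 in OB. Bmp4, a BMP ligand, had 0.986 to 7.50 in AG, against 0 to 1.97 in BS and 0 to 4.42 in OB. Both were under 10 normalized reads in every library and were not tested, and as genes with 2 RefSeq transcripts they are not read as silent.

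Ltbp2 encodes a protein of elastic fibres from the family that holds latent TGF-beta in the matrix, although LTBP2 itself is known for not binding it. It had 82.5, 73.9 and 71.9 normalized reads in AG, 4.19, 0 and 0 in BS_287, BS_295 and BS_296, and 6.63, 0.952 and 5.43 in OB_257, OB_287 and OB_295. Every tumour library was below AG, BS resting on 5 reads and OB on 12. The ratio of AG to BS was 48.2 (interval 20.4 to 150) and that of AG to OB 18.4 (interval 10.3 to 36.0). Ltbp2 fell by 5.47 ± 0.75 (SE) in BS (limma adjusted p = 0.000811) and fell by 4.07 ± 0.75 in OB (limma adjusted p = 0.00367). As with Inhba and Fst, only its AG values took Ltbp2 into the test, and the direction of its change was set in advance.

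Smad7, the inhibitory SMAD that targets the receptors for degradation and is itself induced by TGF-beta and BMP signals, stood at 917, 935 and 889 normalized reads in AG. BS libraries had 24.3, 64.0 and 41.4, and OB libraries had 148, 38.1 and 97.8. The tumour groups overlapped and both were well below AG. Smad7 fell by 4.47 ± 0.52 (SE) in BS (limma adjusted p = 0.000327) and fell by 3.46 ± 0.52 in OB (limma adjusted p = 0.00126). OB_257, the library lowest in Inhbb, was the highest tumour library in Smad7. It was also highest in Ltbp2, but on 6 reads against 5 in BS_287 and 5 in OB_295, which is within counting error.

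**Figure D2:**
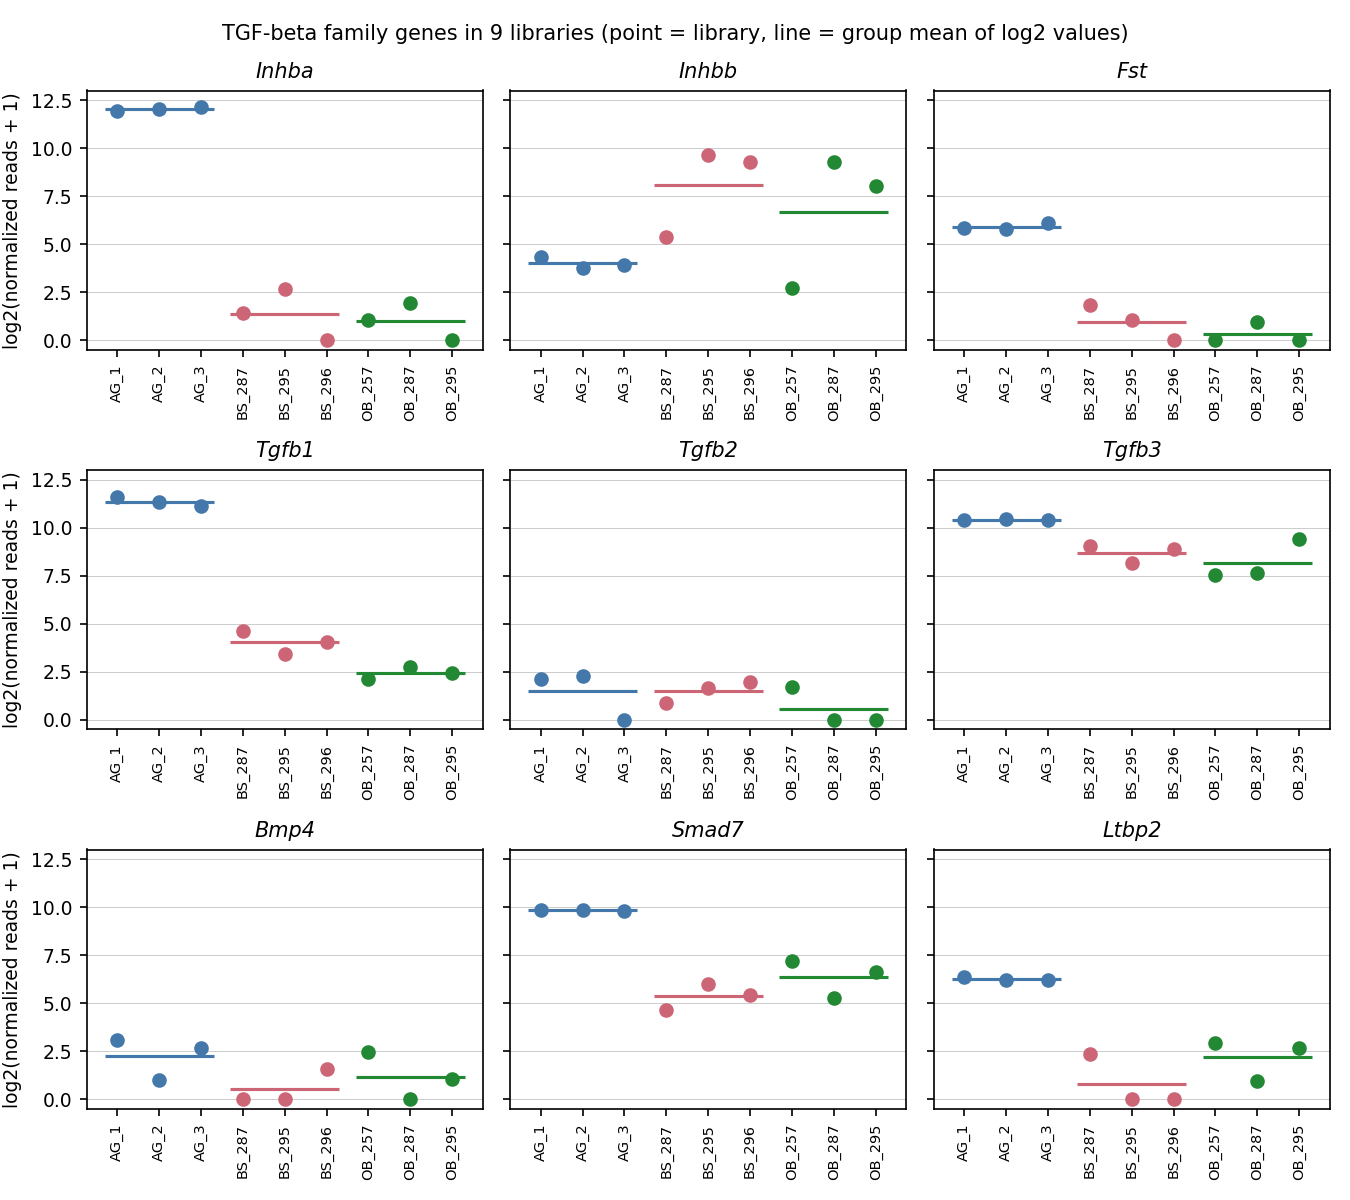
Each panel shows 1 of the 9 genes in the 9 libraries, as log2(normalized reads + 1); points are libraries and lines the group means of the log2 values. Inhba, Fst, Tgfb1, Tgfb3, Smad7 and Ltbp2 are lower in all 6 tumour libraries than in AG, Inhbb is high in 4 of them, and Tgfb2 and Bmp4 are near 0 throughout.

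Of the 9 genes 7 passed the filter on low values. Of these, 3 (Inhba, Fst and Ltbp2) were under 10 normalized reads in every tumour library, passed through AG alone and so had to differ. Tgfb1, at 10 or more only in BS_287 (23.5) and BS_296 (15.8) among tumour libraries, would not have passed without AG either. Its OB libraries were all under 10, so that a fall in OB was built in. Called lower were 6 of 7 in BS, where 19.5% of all 10576 genes tested were called lower, and 6 of 7 in OB, where 19.0% were. Called higher were 0 of 7 in each, beside 15.6% of all genes in BS and 16.0% in OB. The genes were chosen with earlier results of these data known, so that these counts describe the genes and are no support for a trend. Both comparisons share the AG libraries. In OB against BS 0 of 7 were called, beside 0.00% of all genes (limma, adjusted p under 0.05), and 1 of 7 (Tgfb1) had an unadjusted p under 0.05, as did 1019 of 10576 genes. In that comparison edgeR called 0 genes and DESeq2 233. Differences of OB from BS were -0.35 ± 0.72 (SE) for Inhba, -1.42 ± 1.70 for Inhbb, -0.63 ± 0.52 for Fst, -0.52 ± 0.48 for Tgfb3, 1.02 ± 0.52 for Smad7 and 1.40 ± 0.75 for Ltbp2. With errors of this size the libraries do not show whether the tumour groups differ in these genes.

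**Figure D3:**
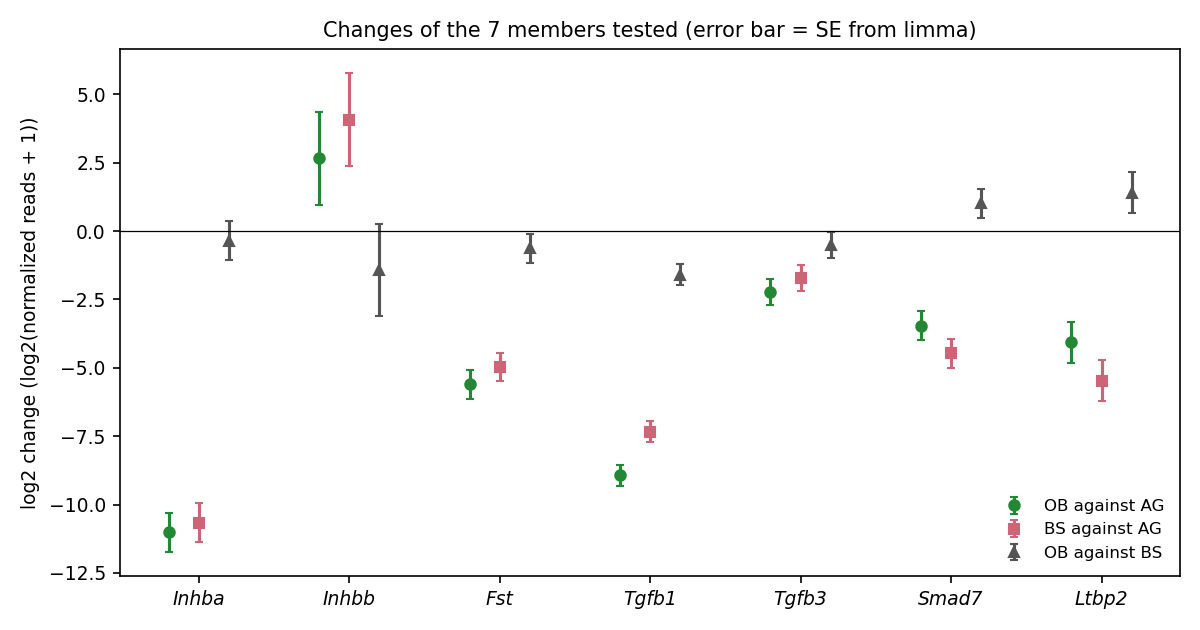
Log2 changes of the 7 genes tested, with the SE from limma as error bars: circles are OB against AG, squares BS against AG and triangles OB against BS. Changes against AG run from -11.01 for Inhba in OB to 4.08 for Inhbb in BS, and those between the tumour groups from -1.60 to 1.40.

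Other genes of the pathway were read from lists written by role. Over all genes tested, 19.5% were called lower and 15.6% higher in BS, and 19.0% lower and 16.0% higher in OB. Receptors that could be tested were mostly not called: of 9 receptors and coreceptors, 0 were called higher in either comparison, 2 lower in BS and 1 lower in OB, with a median change of -0.58 in BS and -0.60 in OB beside -0.03 and -0.01 over all genes tested. These small counts varied: 0 were lower in BS without AG_3, 1 without AG_1, AG_2 or BS_295, 3 in OB without OB_257, and 2 were higher in OB with upper-quartile rescaling or quantile normalization. The type II receptor genes Bmpr2 (5124 ± 351 normalized reads in AG, 4830 ± 2355 in BS and 4806 ± 1520 in OB) and Acvr2a (837 ± 117, 1042 ± 391 and 1386 ± 308) were not called, nor was the BMP receptor gene Bmpr1a (3292 ± 227, 5115 ± 1813 and 7871 ± 4245). Cd109, a TGF-beta coreceptor that restrains signalling, fell from 6347 ± 283 in AG to 1139 ± 741 in BS (limma adjusted p = 0.015, and 0.0516 without AG_3) and 315 ± 179 in OB (limma adjusted p = 0.00147). Tgfbr3, betaglycan, was called in BS, where it fell by 3.14 (limma adjusted p = 0.0231), and not in OB (limma adjusted p = 0.0884). The call in BS was lost without AG_1, AG_2, AG_3, BS_287 or BS_295, and OB_257 had 1148 normalized reads of Tgfbr3 against 91.4 and 125 in OB_287 and OB_295. Tgfbr1 and Tgfbr2, genes with several RefSeq transcripts, had too few reads to test.

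Among other ligands 2 of 7 were called higher and 1 lower in OB, and 1 higher and 1 lower in BS, with a median change of 0.24 in OB and 0.07 in BS. The shares over all genes were 16.0% higher and 19.0% lower in OB, and 15.6% higher and 19.5% lower in BS. Bmp7, a BMP ligand, had 0, 0 and 2.18 normalized reads in AG, 0.839, 4552 and 3118 in BS_287, BS_295 and BS_296, and 660, 4055 and 2261 in OB_257, OB_287 and OB_295. It was high in 5 of 6 tumour libraries and at AG level in BS_287, the library with the lowest Inhbb among BS. The ratio of OB to AG reads was 3779 (interval 1046 to 31207). Bmp7 was called in OB (limma adjusted p = 0.0161, and 0.0546 to 0.0562 without AG_1 or AG_2) and not in BS (limma adjusted p = 0.0508). It passed the filter through tumour libraries alone, so that its rise was in part set by the filter. Gdf6, a BMP-type ligand, fell from 82.4 ± 16.7 in AG to 5.83 ± 5.5 in BS (limma adjusted p = 0.00407) and 0.725 ± 1.25 in OB (limma adjusted p = 0.000586). Among tumour libraries only BS_295 (11.7) reached the level of the filter, so that Gdf6 would not have passed without AG. Its OB libraries were all under that level, so that a fall of Gdf6 in OB was built in. Gdf11 rose in OB by 0.75 (limma adjusted p = 0.0182, lost without any 1 AG library or OB_295), and Gdf9 in BS by 1.82 (limma adjusted p = 0.0142, lost without AG_2).

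Extracellular inhibitors other than Fst had 5 of 9 genes called lower and 0 higher in BS, and 5 lower and 1 higher in OB (medians -3.02 and -2.82). Beside this stand 19.5% lower and 15.6% higher of all genes in BS, and 19.0% and 16.0% in OB. With a filter of 50 normalized reads, 3 of the 5 genes then tested were called lower in each. The activin inhibitor gene Fstl3 and the matrix proteoglycan gene Dcn passed the main filter through AG alone. Fstl3 had 17.4 to 38.4 normalized reads in AG, 0 in BS and 1.11 to 4.35 in OB. Crim1, which binds BMPs at the cell surface, fell from 11236 ± 158 in AG to 1173 ± 292 in BS (limma adjusted p = 0.00404) and 1684 ± 1468 in OB (limma adjusted p = 0.00452). Nbl1, another BMP antagonist, fell by 4.51 in OB (limma adjusted p = 0.0267, lost without any 1 AG library), and Bmper, a BMP binding protein, fell by 3.02 in BS (limma adjusted p = 0.044, lost without any 1 AG or BS library). Noggin (Nog), a secreted BMP inhibitor, was the gene called higher in OB (limma adjusted p = 0.0185), named here after its values were seen, with 12.2, 35.2 and 86.9 normalized reads in OB and 1 read in AG. Nog passed the main filter through tumour libraries alone, so that its rise was in part set by the filter. Without AG_1, AG_3 or OB_295 the count of inhibitors called higher in OB was 0. For Nog the ratio of OB to AG reads was 139 (interval 24.6 to 5549).

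In the list of latency and activation 3 of 9 genes were called lower and 1 higher in BS, and 4 lower and 1 higher in OB (medians -0.76 and -2.35). All genes tested had 19.5% lower and 15.6% higher in BS, and 19.0% and 16.0% in OB. Ltbp3, which is needed for TGF-beta secretion, fell from 16528 ± 2144 normalized reads in AG to 1693 ± 477 in BS (limma adjusted p = 0.000139) and 1066 ± 501 in OB (limma adjusted p = 4.74e-05). Ltbp1 fell by 4.11 in BS (limma adjusted p = 0.00797) and fell by 4.19 in OB (limma adjusted p = 0.00717). Lrrc32, the cell surface anchor of latent TGF-beta, fell by 2.77 in OB (limma adjusted p = 0.0104) and was not called in BS (change of 1.55, limma adjusted p = 0.0921). Without OB_257 the count of lower genes in BS was 5. Fbn2, a fibrillin of developing microfibrils to which such complexes attach, rose from 656 ± 61.4 to 5080 ± 2586 in BS (limma adjusted p = 0.00234) and 6297 ± 3754 in OB (limma adjusted p = 0.00141).

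SMADs and their regulators other than Smad7 had 7 of 10 genes called lower in BS and 6 in OB, and 0 higher (medians -1.67 and -1.66). The shares of all genes were 19.5% lower and 15.6% higher in BS, and 19.0% and 16.0% in OB. The count in BS was 4 with upper-quartile rescaling, quantile normalization, edgeR or no filter on low values, and also without any 1 AG library or BS_287. Smad3, the signal carrier of TGF-beta and activin, stood at 6981 to 7145 normalized reads in AG, against 1396 to 2759 in BS and 1363 to 2589 in OB, and fell by 1.93 in BS (limma adjusted p = 0.00172) and fell by 2.02 in OB (limma adjusted p = 0.0013). The BMP SMAD gene Smad1 (change of 0.10 in BS and -0.28 in OB) was not called. Smad6, the other inhibitory SMAD, went from 374 to 551 in AG down to 5.87 to 16.0 in BS and 4.76 to 32.1 in OB, and fell by 5.36 in BS (limma adjusted p = 0.000389) and fell by 5.08 in OB (limma adjusted p = 0.000527). Only BS_295 and OB_257 among tumour libraries reached 10 normalized reads of Smad6. Smad6 would therefore not have passed the filter without AG, nor would Skil, which is also in this list. Pmepa1, a TGF-beta induced inhibitor of the pathway, fell by 5.57 in BS (limma adjusted p = 0.000446) and fell by 5.77 in OB (limma adjusted p = 0.000376). Tgif1, a SMAD corepressor, fell by 2.41 in BS (limma adjusted p = 0.00325) and fell by 3.34 in OB (limma adjusted p = 0.000597).

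The list with the most falls was that of TGF-beta and activin response genes. Leaving out Smad7 and Ltbp2, 12 of 12 tested genes were called lower in OB and 11 of 12 in BS, with medians of -6.27 and -5.35. Of all genes tested, 19.0% were called lower in OB and 19.5% in BS. In each of the 12 every tumour library lay below every AG library. How often this held over all genes tested was not counted. AG libraries varied little (median SD of log2 values 0.116, against 0.466 in BS and 0.483 in OB). Of the 12, 2 were under 10 normalized reads in every tumour library and passed the filter through AG alone, Snai2 among them. Fn1 reached 10 only in BS_287 (33.5) and OB_287 (11.4) among tumour libraries, and Skil only in BS_295 (11.7). Neither would have passed without AG, so that these falls were in part set by the filter. Without an AG library the counts were 10 in OB and 8 in BS. Ccn2, connective tissue growth factor, fell from 8898 ± 216 to 15.2 ± 11.2 in BS (limma adjusted p = 0.000624) and 40.5 ± 43.4 in OB (limma adjusted p = 0.000822). Tnc, the matrix protein tenascin C, was the gene not called in BS (limma adjusted p = 0.168). It had 322610 to 348356 normalized reads in AG, 7835 to 18681 in BS, 5954 and 5161 in OB_287 and OB_295 and 2.21 in OB_257, and its call in OB (limma adjusted p = 0.0179) was lost without any 1 AG library (0.0557 to 0.0562). Tgm2, transglutaminase 2, was the gene in which an OB library came closest to AG, with 1029 normalized reads in OB_257 against 1943 to 2156 in AG.

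**Figure D4:**
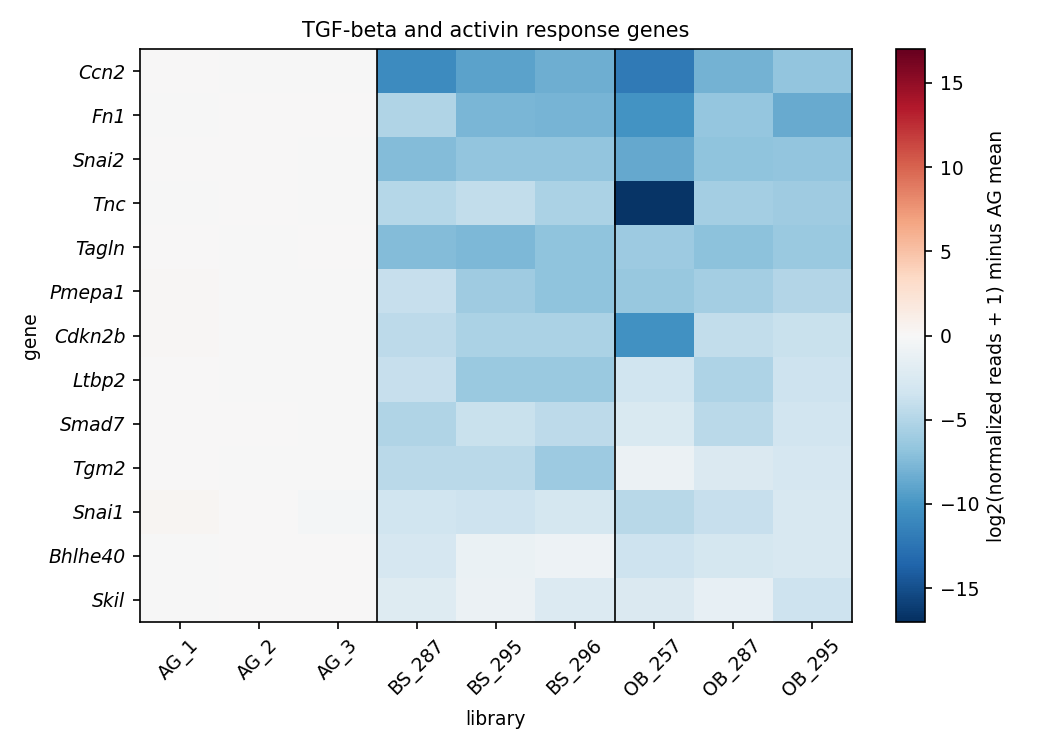
TGF-beta and activin response genes, Smad7 and Ltbp2 included and 1 tested gene not shown, in each library as log2(normalized reads + 1) minus the AG mean of the gene; blue is lower than AG, and black lines part the groups. Every gene shown is below AG in all 6 tumour libraries, from -16.66 for Tnc in OB_257 to -0.88 for Bhlhe40 in BS_296.

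BMP response genes other than Smad7 were divided: 4 of 9 were called lower and 0 higher in each comparison (medians -2.84 in BS and -2.47 in OB). Of all genes, 19.5% were called lower and 15.6% higher in BS, and 19.0% and 16.0% in OB. The count of BMP response genes called lower in OB was 2 without any 1 AG library or OB_287. The 4 called were Smad6, Msx2, Atoh8 and Runx2, of which Runx2 is named after its values were seen. Smad6, Msx2 and Runx2 would not have passed the filter without AG, since too few tumour libraries reached 10 normalized reads. Msx2, a homeobox gene, fell from 79.9 ± 9.48 to 6.82 ± 6.31 in BS (limma adjusted p = 0.00456) and 1.40 ± 1.68 in OB (limma adjusted p = 0.000711). Atoh8, a helix-loop-helix factor induced by BMP, fell by 4.53 in BS (limma adjusted p = 0.00249) and fell by 2.79 in OB (limma adjusted p = 0.0229, lost without OB_287 at 0.0529 and without any 1 AG library). Id2, Id3 and Id4, inhibitors of differentiation and common BMP targets, were not called, with changes from -2.83 for Id4 in BS to 0.47 for Id2 in OB.

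**Figure D5:**
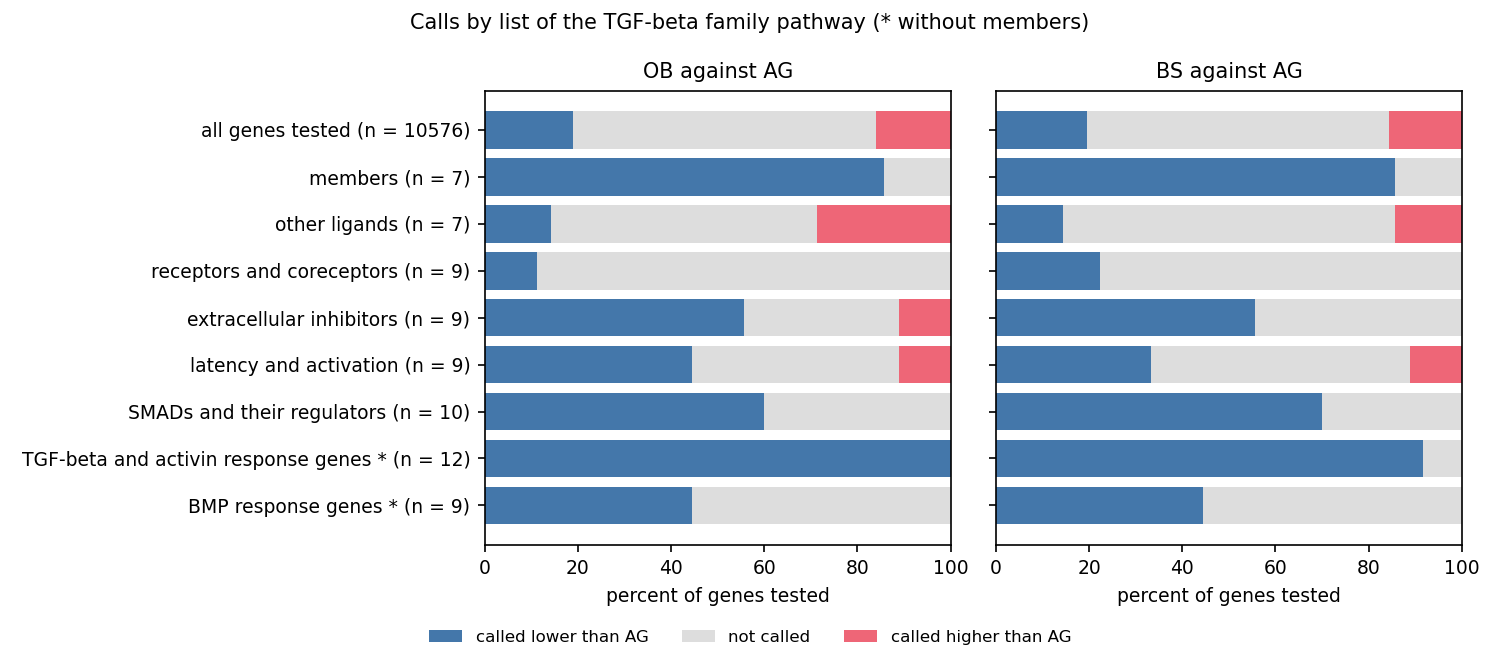
Share of the tested genes of each role list that limma called lower (blue), called higher (red) or did not call (grey), for OB against AG and BS against AG, beside all 10576 genes; the asterisk marks lists shown without the 9 genes. Of the response genes of TGF-beta and activin, 12 of 12 are blue in OB and 11 of 12 in BS, and of the receptors 1 and 2 of 9.

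Markers of mesenchymal cells were also lower in summed level in the tumour libraries. Of 10 such markers 9 had a row and 7 were tested, of which 6 were called lower in each comparison and 1, Thy1, was called higher in BS. Of all genes tested, 19.5% were called lower and 15.6% higher in BS, and 19.0% were called lower in OB. Thy1 passed the filter through tumour libraries alone, so that its rise was in part set by the filter. Col1a2 and Dcn, 2 of the 6, were under 10 normalized reads in every tumour library, passed the filter through AG alone and so had to differ. Col3a1, at 10 or more only in OB_295 (44.6) among tumour libraries, would not have passed without AG either. The summed level of the list was 94804 to 108699 normalized reads in AG, against 581 to 4484 in BS and 104 to 548 in OB. Col1a1, a fibrillar collagen chain, stood at 40954 ± 5404 in AG, Lum at 1.99 ± 1.07 and Thy1 at 0, and Dcn was at 0 in both tumour groups. Tagln is in this list and among the response genes, and Dcn is also in the list of inhibitors. The part of these markers in the falls of Inhba, Tgfb1, Fst, Ltbp2, Smad7 and their response genes was not tested. Oligodendrocyte precursor markers had a summed level of 17.4 to 20.0 in AG and 33881 to 80010 in the tumour libraries. Of the 6 tested, 3 were called higher in BS and 5 in OB, beside 15.6% and 16.0% of all genes, and Pdgfra was called in neither. Olig1, Olig2, Sox10 and Gpr17 had at most 2.18 normalized reads in any AG library. Pdgfra was under 10 in every AG library and Cspg4 in AG_3 (5.44). None of the 6 would have passed the filter on AG values alone, so that these rises were in part set by the filter. BS_287 had 3.35 normalized reads of Sox10 and 0 of Gpr17. Of 8 microglia markers 2 had a row, and their sum was at most 39.1 in any library.

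Genes whose pattern over the 9 libraries was most like that of a member were sought by the root mean square (RMS) difference of log2 values centred on each gene's own mean, among about 7684 genes with a mean of at least 50. Among the 3 nearest to Inhba were Arhgef5 (RMS difference 0.70) and the metalloproteinase gene Mmp3 (0.80). Nearest to Inhbb were the transcription factor gene Sall3 (0.54), the receptor ligand gene Gas6 (0.77) and the lipid enzyme gene Acsbg1 (0.78). Sall3 had 1035 normalized reads in BS_287 and 98.4 in OB_257 against 7233 to 14555 in the other 4 tumour libraries, and so shares the low values of Inhbb in these 2. Smad7 was most like Zfhx3 (0.29), Rras2 (0.31) and Gadd45b (0.31), which were highest among tumour libraries in OB_257. Ltbp2 was most like Snhg18 (0.45), Fam180a (0.49) and Atoh8 (0.57), Fst like Pqlc3 (0.41), Spon2 (0.48) and Layn (0.55), Tgfb3 like Rhob (0.39), Pfkfb1 (0.40) and G6pdx (0.42), and Tgfb1 like Plag1 (0.67), Pbp2 (0.74) and 4930486L24Rik (0.74). The nearest other member was Tgfb1 for Inhba (1.66), Ltbp2 for Smad7 and for Fst (1.04 and 1.22) and, for Inhbb, Tgfb3 at 3.24, farther than 6551 other genes.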

How the data were processed

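Messenger RNA was sequenced in 9 mouse libraries. The deposited values are a signal, normalized reads per RefSeq transcript, which the authors scaled by a size factor for each library. Undoing it gave whole numbers of reads, to within 0.05, for 100% of the values. The submitters' processing notes name mm9, DESeq2 1.20.0, Subread 1.6.2 with featureCounts, and HISAT2 2.1.0, without their role. For the annotation, strand setting and treatment of shared reads nothing is given in the sources used here. Rows were named from RefSeq (16202) or GENCODE (41) tables and summed per symbol; 17 rows without a name were left out.

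Testing used the R (4.3.3) package limma 3.58.1. All 9 libraries entered 1 fit of log2(value + 1) with 3 group means, a variance trend and two-sided tests, for genes with at least 10 normalized reads in at least 3 libraries (10576 genes). P-values were adjusted by Benjamini-Hochberg over all of them. On the recovered reads DESeq2 1.42.0 and edgeR 4.0.16 were run as alternatives. The method was tested on simulated reads. Read ratios have exact (Clopper-Pearson) 95% intervals for counting error only. The 9 genes and the lists were chosen with earlier results of these data known. Besides the 9, each list gave up to 3 called genes per direction, ranked by size of change, whose mean reached 50 in the higher group. Receptors, Smad1, Smad3, Ids and markers named besides these were chosen after their values were seen. Figures were drawn with matplotlib 3.10.9. Depth, 11300273 to 19868282 reads per library, limits the precision of low genes. Of the genes the rule selected, 1 is counted within its list but is not reported here.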

Additional observations from a re-analysis of the deposited data

How the results depend on the processing

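Of 469 values of single genes under the alternatives, 450 kept direction and side of the threshold, 4 lost and 11 gained a call and 4 turned direction. None of the 4 had been called: Inhba in OB against BS (0.30 without BS_295 and 0.15 without OB_295, in a range from -1.03 to 0.30 with 1 library left out) and Inhbb in OB against BS (0.56 without OB_257, in a range from -2.78 to 0.56). The fourth was Inhbb with the number in the titles as a replicate block (1.16). That block, possible only for OB against BS because AG shares no number with the tumours, raised the count of genes called from 0 to 251, of which 0 were among the 9. The labels do not say what the numbers mark, and deviations of same-numbered libraries correlated at 0.07 for BS_287 with OB_287 and 0.30 for BS_295 with OB_295.

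The 6 falls held under every alternative in OB (Inhba -11.54 to -9.38, Tgfb1 -9.19 to -8.13), and in BS, with 1 library left out, between 5 and 6 did, the lost one being Tgfb3. Rises counted 0 to 1 in both with 1 library left out. Inhbb made 1 rise in OB with DESeq2 (1) and in BS with edgeR (1), DESeq2 (1), the compared groups only (1) and array weights by group (1). Without BS_287 and OB_257 together, added after seeing the data, rises were 1 in OB and 1 in BS. With 1 library left out, genes called ran from 2502 to 4164 in OB against AG, from 2427 to 4353 in BS against AG and from 0 to 96 in OB against BS. OB against BS gave 4 genes with a pseudocount of 0.5, 6 with 5, 3 with quantile normalization, 2 without a trend, 233 with DESeq2 (1 of the 9 lower, Tgfb1) and 69 without BS_287 and OB_257. Upper-quartile rescaling moved the median change of all genes in OB from -0.01 to 0.18 and the split from 1687 higher and 2008 lower to 2158 and 1675, and in BS from -0.03 to 0.18, with 1652 and 2060 turning to 2135 and 1674. The directions of the 7 genes tested against AG did not turn with any scaling tried. Genes of a few reads are limited by depth.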
